A study of Homo sapiens with 15 samples.

Results

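FA2H, the fatty acid 2-hydroxylase, was followed in triple negative breast cancer cells beside 9 enzymes of ceramide and hexosylceramide synthesis. The genes were the rows of the deposited table with the symbols FA2H, CERS2, CERS4, CERS5, CERS6, UGT8, UGCG, DEGS1, DEGS2 and SPTLC2, 10 of 33158 gene symbols, and each of the 10 was found. There are 15 RNA libraries in 5 groups of 3. SUM149 and HCC1937 cells were stained for CD44 and CD24 and sorted into cancer stem cells (CSCs, CD44+ with CD24 absent or low) and the remaining non-CSCs. SUM159 was sequenced unsorted and is labelled as cancer stem cells. The 3 are established human triple negative breast cancer cell lines, named SUM149PT, HCC1937 and SUM159PT in the study, and no treatment or genetic change is described for these libraries. CSCs are here a surface staining class, and SUM159 has no non-CSC counterpart, so that the line, the absence of sorting and the CSC label cannot be told apart in it. No label says that the 3 libraries of a group came from separate cultures, so the p-values measure the spread between these samples, which may be technical. The study picked FA2H out of these same libraries, so its difference between CSCs and non-CSCs is not independent evidence of its direction.

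Expression is given as FPKM, which divides the fragments of a gene by its length and by the library size, as deposited. The read depth is unknown. FPKM summed over genes to between 291276 and 366532 in the 12 sorted libraries and to between 634746 and 652082 in the 3 SUM159 libraries. Between 11249 and 11997 genes were above 1 FPKM in a sorted library, against 8534 to 8670 in SUM159. The SUM159 libraries therefore stand apart. For the enzymes followed here, the log2 differences of SUM159 from the CSC fractions are given with other scalings beside them. Marker levels, group means and the summed ceramide synthases of SUM159 are given as deposited only, so their rank among the groups may depend on the scaling. A value of 0 is read only as listed at 0. In bulk RNA, fewer cells with a transcript and less of it in each cell cannot be told apart.

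Ceramide is built from serine and palmitoyl-CoA by serine palmitoyltransferase, of which SPTLC2 is a catalytic subunit. Ceramide synthases (CERS) then attach a fatty acyl chain, each with its own preference for chain length, and the dihydroceramide desaturases DEGS1 and DEGS2 complete the ceramide backbone, with DEGS2 also acting as a hydroxylase that makes phytoceramide. FA2H adds a hydroxyl group to the fatty acid, UGT8 adds galactose and UGCG adds glucose to ceramide, and galactosylceramide with a hydroxylated chain is best known as a lipid of myelin and of some epithelia.

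The sorted fractions were first checked by markers. CD24, a marker used for the sort, had 7.74 ± 0.198 FPKM in the CSCs of SUM149 against 139 ± 6.53 in the non-CSCs, and 23.3 ± 0.747 against 150.04 ± 14.3 in HCC1937 (SD, n = 3 each). CD44 was 84.4 ± 2.08 against 64.5 ± 2.86 FPKM in SUM149 and 106 ± 6.33 against 97.8 ± 3.98 in HCC1937 (SD, n = 3 each), where the difference did not pass the test (adjusted p = 0.314). The epithelial cadherin CDH1 was lower in CSCs, by -4.52 on the log2 scale in SUM149 and -2.29 in HCC1937, and the mesenchymal filament gene VIM was higher, by 3.11 and 2.57. SUM159 had, as deposited, 0.729 ± 0.0410 FPKM of CD24 (SD, n = 3), the lowest of the 5 groups. Its deposited CD44 was 28.8 ± 0.542 FPKM (SD, n = 3), again the lowest. The mesenchymal factor ZEB1 was 0.204 ± 0.0782 FPKM there (SD, n = 3), as deposited also the lowest. ZEB1 was 6.82 ± 0.507 in SUM149 CSCs, 7.22 ± 0.450 in HCC1937 CSCs, 0.776 ± 0.141 in SUM149 non-CSCs and 1.63 ± 0.280 in HCC1937 non-CSCs (SD, n = 3 each). The mesenchymal cadherin CDH2 was 2.86 ± 0.354 FPKM in SUM159, against 21.8 ± 0.303 in SUM149 CSCs and 28.2 ± 0.416 in HCC1937 CSCs (SD, n = 3 each). As deposited, VIM was 1078 ± 14.9 FPKM in SUM159 (SD, n = 3), above both non-CSC groups (244 ± 34.6 and 156 ± 33.2, SD, n = 3 each). It was below SUM149 CSCs (2089.9 ± 90.2, SD, n = 3). Against HCC1937 CSCs (917 ± 83.5, SD, n = 3) the difference did not pass the test (log2 0.24, adjusted p = 0.135).

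Because FA2H and UGT8 are genes of myelin lipids, markers of oligodendrocytes were read as well. MOG was listed at 0 in the 15 libraries. MBP was 0.222 ± 0.0191 FPKM in SUM149 CSCs, 3.45 ± 0.186 in SUM149 non-CSCs, 1.03 ± 0.177 in HCC1937 CSCs, 1.45 ± 0.0587 in HCC1937 non-CSCs and 0.00335 ± 0.00339 in SUM159 (SD, n = 3 each). MBP thus moved with UGT8 in SUM149 while MOG was listed at 0. The endothelial pair PECAM1 and CDH5 summed to at most 1.08 FPKM in a library. In SUM149 the median sum was 0.120 FPKM in CSCs against 0.976 in non-CSCs. Both genes were called lower there (log2 -1.20 for PECAM1 and -2.70 for CDH5), so they moved with FA2H and UGT8. In HCC1937 CSCs CDH5 was called lower (-1.28) and PECAM1 was not called (0.23).

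CSCs and non-CSCs were compared within each line on log2(FPKM + 0.1), a scale that understates the differences of genes with low FPKM, and genes with an adjusted p up to 0.05 count as called. In SUM149 CSCs the genes for hydroxylation, desaturation and galactosylation of ceramide were lower (FA2H, DEGS1, DEGS2 and UGT8), UGCG was slightly lower, and the synthases CERS2, CERS4 and CERS6 were higher. Of the 10 genes, 3 were called higher, against 33.3% of the 16037 genes tested, and 5 lower, against 41.5%. These shares are close to those of all genes, so the count says nothing particular about the enzymes; the sizes and the roles are what follows. At a stricter limit, an adjusted p of at most 0.0001 with an absolute log2 difference of at least 1, 6 of the 10 were called, against 20.5% of all genes. The median absolute log2 difference was 1.5 over the 10 genes and 0.71 over all genes tested. The 10 genes were chosen with earlier results of these data known, so their larger sizes are a description and no independent evidence. Over the rest of the pathway list the median was 0.64. Of all calls 44.6% were higher, and 54.4% after quantile normalization, which moved the median of all genes from -0.11 to 0.09; the 8 called enzymes kept their direction under TPM, upper quartile and quantile scaling and with the GC trend removed.

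In HCC1937 the differences between fractions were smaller. FA2H and SPTLC2 were lower in CSCs, and CERS2 and DEGS1 were higher. UGT8 was listed at 0 in the 6 libraries, which left 9 genes to test, of which 2 were called higher, against 10.3% of 15582 genes, and 2 lower, against 15.3%. At the stricter limit limma called 0 of the 9, as it did 0 genes in all (0%). The median absolute log2 difference was 0.38 over the 9 genes and 0.24 over all genes, with the same limit from the choice of the genes. Of all calls 40.3% were higher, 52.8% after quantile normalization and 54.3% with TPM scaling, which moved the median of all genes from -0.03 to 0.05 and 0.09; the 4 called enzymes kept their direction under these scalings.

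The CSC effect itself differed between the lines for 8 of the 10 genes by the interaction term over the 12 sorted libraries. It was more positive in SUM149 for 4 genes, against 28.1% of 16451 genes, and more negative for 4, against 33.0%. These were CERS2, CERS4, CERS6 and SPTLC2 in the first direction and FA2H, DEGS1, UGCG and UGT8 in the other. UGT8 was listed at 0 in HCC1937 and passed the expression minimum only through the SUM149 non-CSCs (2.92 FPKM). Its call was set by that group, and 7 of the 8 genes remain without it. DEGS1 was called in both lines in opposite directions, although its HCC1937 call was lost with the replicate block and in 5 of the 6 fits with a library left out.

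**Figure D1:**
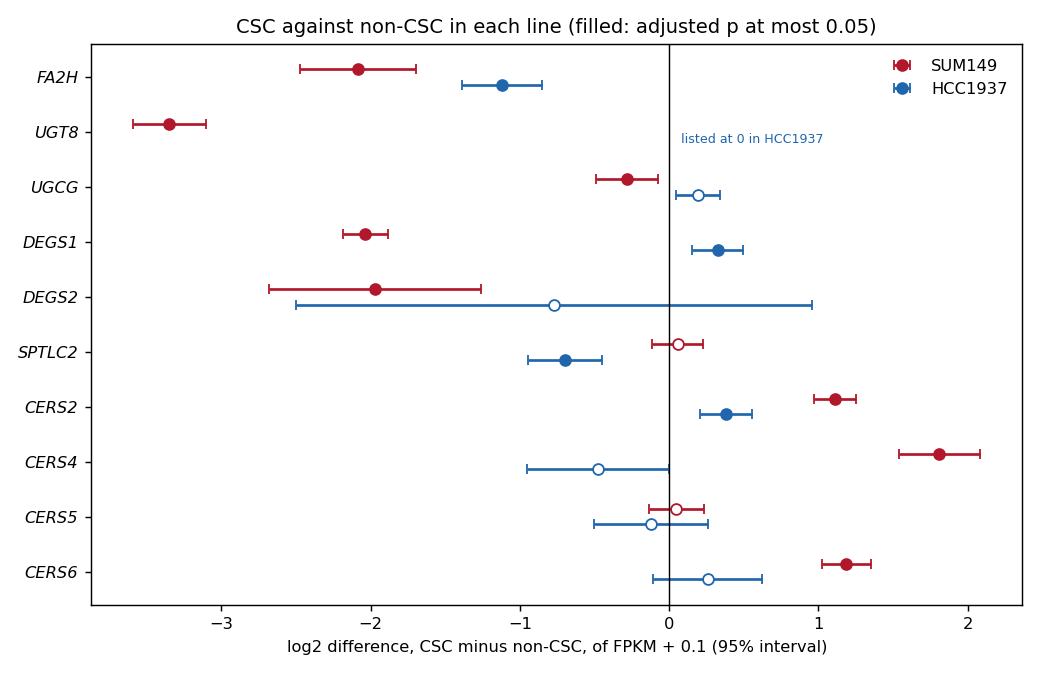
Log2 difference between CSCs and non-CSCs for the 10 genes in SUM149 (red) and HCC1937 (blue), with 95% intervals from limma; filled points passed an adjusted p of at most 0.05. FA2H lies left of 0 in both lines, at -2.08 and -1.12, whereas DEGS1 lies at -2.04 in SUM149 and 0.32 in HCC1937.

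FA2H itself was listed at 0.251, 0.196 and 0.276 FPKM in the 3 libraries of SUM149 CSCs and at 1.09, 1.41 and 1.56 in SUM149 non-CSCs. In HCC1937 it was 11.5, 10.2 and 9.06 FPKM in CSCs and 20.7, 23.4 and 22.8 in non-CSCs, and in SUM159 it was 0.282, 0.105 and 0.0705. Within each sorted line every CSC library was below every non-CSC library. The order of the group means ran from HCC1937 non-CSCs (22.3 ± 1.40 FPKM) over HCC1937 CSCs (10.2 ± 1.2) and SUM149 non-CSCs (1.35 ± 0.241) to SUM149 CSCs (0.241 ± 0.0409) and SUM159 (0.152 ± 0.113, SD, n = 3 each). The last 2 groups overlapped, and the other neighbours did not.

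The difference between the lines exceeded that between the fractions. FA2H was 5.61-fold lower in CSCs than in non-CSCs of SUM149 (log2 difference -2.08, SE 0.16, adjusted p = 8.05e-05) and 2.18-fold lower in HCC1937 (-1.12, SE 0.11, adjusted p = 0.00141). The effect was more negative in SUM149 by -0.97 (SE 0.20, adjusted p = 0.00188), but this difference rests on low values: with 1 FPKM added in place of 0.1 it was 0.14 (adjusted p = 0.381). HCC1937 exceeded SUM149 by 42.5-fold in CSCs (log2 4.92, SE 0.24) and 16.5-fold in non-CSCs (log2 3.96, SE 0.24). The CSCs of HCC1937 therefore held more FA2H mRNA than the non-CSCs of SUM149, by 7.58-fold. Ranked among 16373 genes within each library, FA2H stood at percentile 17.1 ± 1.46 in SUM149 CSCs, 30.9 ± 2.74 in SUM149 non-CSCs, 69.9 ± 1.83 in HCC1937 CSCs, 83.6 ± 1.01 in HCC1937 non-CSCs and 22.6 ± 7.08 in SUM159 (SD, n = 3 each).

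**Figure D2:**
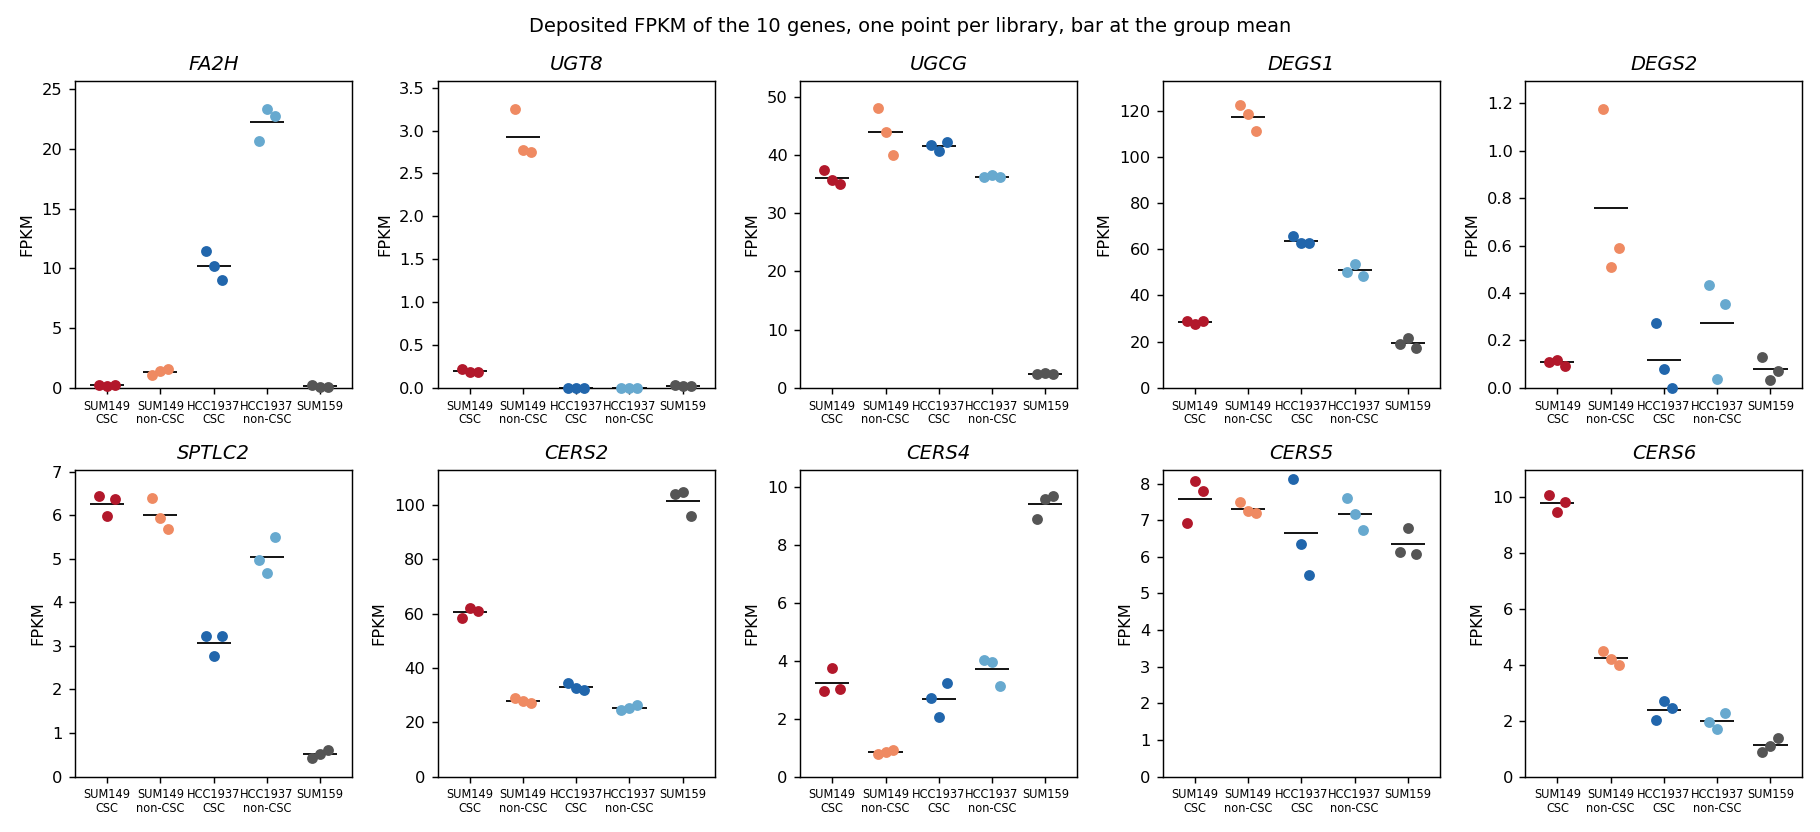
Deposited FPKM of the 10 genes on linear axes, a point for each library and a bar at the mean of the 3 libraries of a group. FA2H is high in both HCC1937 fractions, UGT8 in SUM149 non-CSCs alone (2.92 FPKM), and UGCG and SPTLC2 have their lowest values in SUM159.

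FA2H lies on chromosome 16 of GRCh38.p14, chr16:74712969-74774820 on the minus strand, by RefSeq. Promoter entries from RefSeq matched 8 of the 10 genes. The 250 bases before the start were searched on both strands for 4 motifs. These were the E-box, read as CACCTG and on the other strand as its complement, the GC box GGGCGG, the box CCAAT, and the TATA box, read as TATAAA. The E-box was found in 2 of the 8 windows, those of FA2H and DEGS2, and in 17.5% of 27305 promoters. The FA2H window held 3 matches, which start 174, 141 and 50 bases before the start of transcription, and 0.472% of promoters held 3 or more. That window had the most E-box matches of the 8, and the share makes no allowance for this choice or for its 77.6% GC. A relation of the matches to expression was not tested. The DEGS2 window held 1, at 68 bases. The windows of DEGS1, UGT8 and UGCG, also called lower in SUM149 CSCs, held 0 matches to these letters; other E-box forms were not searched, and the start used for UGT8 was not matched to an annotated transcript. The windows below are the 2 that hold the E-box, with its matches on either strand in capitals, FA2H at chr16:74774821-74775070 and DEGS2 at chr14:100159646-100159895, both on the minus strand of GRCh38.p14. The FA2H window adjoins the start of the gene, whereas the DEGS2 window lies inside the span that RefSeq gives for DEGS2 and so precedes an internal start.
FA2H: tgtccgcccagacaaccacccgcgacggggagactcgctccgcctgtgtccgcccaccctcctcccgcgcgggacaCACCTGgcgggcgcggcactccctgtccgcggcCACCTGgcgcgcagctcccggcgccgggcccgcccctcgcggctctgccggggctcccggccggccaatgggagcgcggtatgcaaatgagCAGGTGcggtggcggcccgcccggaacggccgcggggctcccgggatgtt
DEGS2: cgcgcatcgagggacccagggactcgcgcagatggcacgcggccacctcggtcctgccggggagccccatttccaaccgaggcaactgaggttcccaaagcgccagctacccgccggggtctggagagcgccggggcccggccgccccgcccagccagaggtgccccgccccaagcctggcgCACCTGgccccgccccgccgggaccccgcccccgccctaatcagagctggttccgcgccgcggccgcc
GGGCGG or its complement matched in each of the 8 windows (42.3% of promoters), 4 times in that of FA2H and 6 times in that of DEGS2, without overlap with the E-box matches there. CCAAT matched 1 time each in FA2H and CERS6 and 3 times in SPTLC2 (33.0% of promoters), and TATAAA 0 times in FA2H and DEGS2 (11.1%). A match describes the letters of the window and no binding was measured.

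SPTLC2, the catalytic subunit of serine palmitoyltransferase, was listed at 6.44, 5.97 and 6.37 FPKM in SUM149 CSCs and 6.39, 5.94 and 5.70 in non-CSCs. The HCC1937 values were 3.22, 2.76 and 3.23 in CSCs and 4.98, 4.66 and 5.49 in non-CSCs, and in SUM159 0.420, 0.512 and 0.620. The fractions overlapped in SUM149 and did not in HCC1937. The log2 difference was 0.06 in SUM149 (95% interval -0.11 to 0.23, adjusted p = 0.464) and -0.70 in HCC1937 (SE 0.10, adjusted p = 0.00549), and the effects differed by 0.76 (SE 0.12, adjusted p = 0.000368). SPTLC2 was thus lower in CSCs of HCC1937, with a difference in SUM149 that passed the test under quantile normalization alone (0.18, adjusted p = 0.0413).

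Its partner subunits behaved otherwise. SPTLC1, the obligate partner, had 7.50 ± 0.271 FPKM in SUM149 CSCs against 10.5 ± 0.591 in non-CSCs, called lower (log2 -0.48), and was not called in HCC1937 (log2 -0.06). SPTLC3, the alternative catalytic subunit, was 0.348, 0.229 and 0.279 FPKM in SUM149 CSCs against 2.30, 2.39 and 2.26 in non-CSCs (log2 -2.66, called), and 1.66 ± 0.0947 against 1.79 ± 0.187 in HCC1937 (SD, n = 3 each; log2 -0.10, not called). The share of SPTLC3 in the sum of SPTLC2 and SPTLC3 was 4.34% in CSCs and 27.9% in non-CSCs of SUM149, and 35.1% and 26.2% in HCC1937. CSC and non-CSC libraries were separate in both lines, and the share moved in opposite directions, with the exact two-sided permutation p at 0.1 in each line, the smallest that 3 against 3 libraries can give.

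CERS2, which prefers very long acyl chains, was the most abundant ceramide synthase in every group. It was listed at 58.5, 62.2 and 60.9 FPKM in SUM149 CSCs and 29, 27.8 and 27.1 in non-CSCs. HCC1937 had 34.5, 32.5 and 31.8 in CSCs and 24.4, 25.1 and 26.4 in non-CSCs, and in SUM159 104, 105 and 95.8. CSC libraries were above non-CSC libraries in both lines without overlap. The difference was 2.17-fold in SUM149 (log2 1.11, SE 0.06, adjusted p = 2.01e-05) and 1.30-fold in HCC1937 (log2 0.38, SE 0.07, adjusted p = 0.0127), larger in SUM149 by 0.73 (SE 0.08, adjusted p = 3.21e-05). With the replicate number as a block the HCC1937 call was lost (adjusted p = 0.0576), as it was without replicate 1 (0.0531) or replicate 2 (0.0533) of the non-CSCs. CERS2 shares up to 516 bases of exon with an antisense transcript that has no row in the table.

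CERS4, a synthase of long to very long chains, was 2.97, 3.74 and 3.04 FPKM in SUM149 CSCs and 0.794, 0.834 and 0.923 in non-CSCs. HCC1937 had 2.73, 2.05 and 3.23 in CSCs and 4.03, 3.98 and 3.12 in non-CSCs. The fractions stood apart in SUM149 and overlapped in HCC1937. CSCs were higher in SUM149 (log2 1.81, SE 0.11, adjusted p = 3.57e-05), while the HCC1937 value of -0.47 did not pass the test (95% interval -0.95 to 0.00, adjusted p = 0.134; 0.0325 when the 15 libraries shared a fit). The effects differed by 2.29 (SE 0.23, adjusted p = 1.70e-05).

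CERS6, which prefers palmitoyl chains, was 10.04, 9.46 and 9.82 FPKM in SUM149 CSCs and 4.50, 4.21 and 4.0 in non-CSCs, a gap without overlap (log2 1.19, SE 0.07, adjusted p = 2.60e-05). In HCC1937 it was 2.02, 2.68 and 2.43 in CSCs and 1.94, 1.71 and 2.27 in non-CSCs, which overlapped (log2 0.26, 95% interval -0.11 to 0.62, adjusted p = 0.267). CERS6 shares exon sequence of up to 2686 bases with the antisense gene CERS6-AS1, and whether strand was used in counting is not stated, so their reads cannot be told apart. CERS5, the other synthase with a preference for palmitoyl chains, lay between 5.49 and 8.11 FPKM in the 15 libraries, and each neighbouring pair in the order of its 5 group means overlapped. Its differences did not pass the test in SUM149 (log2 0.05, 95% interval -0.14 to 0.24) or HCC1937 (log2 -0.12, 95% interval -0.51 to 0.26).

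Of the other synthases, CERS1 had 1.76 ± 0.229 FPKM in SUM149 CSCs against 0.610 ± 0.149 in non-CSCs (log2 1.40, called) and 1.10 ± 0.293 and 1.33 ± 0.123 in HCC1937 (SD, n = 3 each; log2 -0.28, not called). It shares up to 846 bases of exon with GDF1 on the same strand, so its value is uncertain. CERS3 was at most 0.0575 FPKM in any library and was not tested. The summed FPKM of CERS1 to CERS6 was 82.9 ± 2.38 in SUM149 CSCs, 41.0 ± 1.40 in SUM149 non-CSCs, 45.8 ± 2.65 in HCC1937 CSCs, 39.5 ± 0.177 in HCC1937 non-CSCs and 123 ± 5.07 in SUM159 (SD, n = 3 each). The SUM159 sum is as deposited, and its place above SUM149 CSCs is uncertain. CERS2, 82.5% of it, was lower than in SUM149 CSCs with TPM scaling (log2 -0.34).

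Within that sum, CERS2 made up 73.0% in CSCs and 68.2% in non-CSCs of SUM149, and 72.1% and 64.1% in HCC1937. CERS5 took the opposite course, with 9.15% in CSCs and 17.9% in non-CSCs of SUM149, and 14.5% and 18.2% in HCC1937. So the share of CERS5 was lower in CSCs although its own level did not pass the test in either line. The share of CERS4 was higher in CSCs of SUM149 (3.91% against 2.08%) and lower in CSCs of HCC1937 (5.85% against 9.40%). That of CERS6 was 11.8% against 10.3% in SUM149 and 5.23% against 4.99% in HCC1937, where the libraries overlapped (exact two-sided permutation p = 0.8). The shares of CERS2, CERS4 and CERS5 had an exact two-sided permutation p of 0.1 in each line, the smallest possible here.

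**Figure D3:**
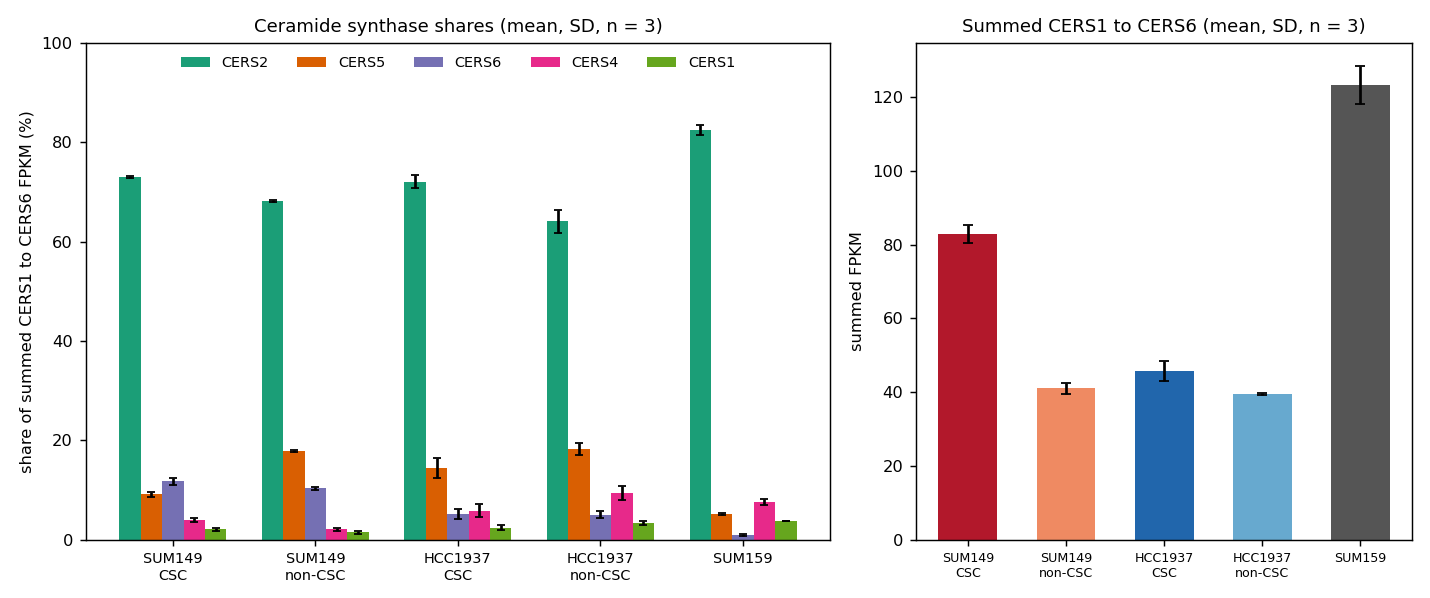
Left, share of each ceramide synthase in the summed FPKM of CERS1 to CERS6; right, that sum in FPKM; bars are means and error bars SDs of 3 libraries. CERS2 holds between 64.1% and 82.5% in each group, and the sum is 82.9 FPKM in SUM149 CSCs against 41.0 in non-CSCs.

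DEGS1, the main dihydroceramide desaturase, was 29, 27.8 and 28.8 FPKM in SUM149 CSCs and 122, 118 and 111 in non-CSCs. HCC1937 libraries held 65.6, 62.5 and 62.7 in CSCs and 50.3, 53.5 and 48.5 in non-CSCs, and in SUM159 19.0, 21.6 and 17.4. Both lines kept their fractions apart, but in SUM149 the CSC libraries were the lower ones and in HCC1937 the higher ones. DEGS1 was 4.11-fold lower in SUM149 CSCs (log2 -2.04, SE 0.06, adjusted p = 3.80e-06) and 1.25-fold higher in HCC1937 CSCs (log2 0.32, SE 0.07, adjusted p = 0.0210), and the effects differed by -2.36 (SE 0.08, adjusted p = 2.05e-08). The HCC1937 call was lost with the replicate block (adjusted p = 0.0653) and without CSC replicate 1, 2 or 3 (0.0524, 0.0621 and 0.0563) or non-CSC replicate 1 or 3 (0.0754 and 0.0658).

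DEGS2 was much less abundant. It was 0.109, 0.119 and 0.0935 FPKM in SUM149 CSCs and 1.18, 0.509 and 0.589 in non-CSCs, without overlap (log2 -1.97, SE 0.29, adjusted p = 0.00128). In HCC1937 it was 0.273, 0.0808 and 0 in CSCs and 0.433, 0.0382 and 0.355 in non-CSCs, so that the fractions overlapped and nothing can be said of a difference (log2 -0.77, 95% interval -2.50 to 0.95, adjusted p = 0.473). Its share in the sum of both desaturases was at most 0.953% in any library. DEGS2 shares up to 280 bases of exon with EVL on the other strand.

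UGT8, which makes galactosylceramide, was 0.224, 0.182 and 0.184 FPKM in SUM149 CSCs and 3.25, 2.77 and 2.75 in non-CSCs. It was listed at 0 in each of the 6 HCC1937 libraries and at 0.0388, 0.0172 and 0.0241 in SUM159. SUM149 non-CSCs were thus the group with the highest level, and no fold is given against HCC1937. In SUM149 the CSCs were 14.9-fold lower (log2 -3.35, SE 0.10, adjusted p = 3.57e-06). FA2H and UGT8 therefore had their highest levels in different lines, FA2H in HCC1937 and UGT8 in SUM149.

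UGCG, which makes glucosylceramide, was far more abundant, at 37.4, 35.8 and 35.1 FPKM in SUM149 CSCs and 48.1, 43.9 and 39.9 in non-CSCs. The HCC1937 values were 41.7, 40.7 and 42.2 in CSCs and 36.1, 36.5 and 36.2 in non-CSCs. No CSC library overlapped with the non-CSCs of its line, with CSCs lower in SUM149 and higher in HCC1937. The difference was -0.28 in SUM149 (SE 0.08, adjusted p = 0.0244) and 0.19 in HCC1937, where it missed the limit (95% interval 0.05 to 0.34, adjusted p = 0.0620), and the effects differed by -0.48 (SE 0.10, adjusted p = 0.00176). The SUM149 call was lost with TPM scaling (adjusted p = 0.0797), with no minimum on expression (0.0587) and without CSC replicate 2 or 3 (0.0655 and 0.0778) or non-CSC replicate 1 or 2 (0.0552 and 0.0605). The HCC1937 difference was called higher with a pseudocount of 1 (adjusted p = 0.0421), with no minimum or a minimum of 1 FPKM (0.00603 and 0.0444), with quantile scaling (0.0442) and with an eBayes trend (0.0244). The share of UGT8 in the sum of UGT8 and UGCG was 0.541% in CSCs and 6.23% in non-CSCs of SUM149, without overlap.

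The lines were then compared directly, in a fit of the 5 group means over the 15 libraries. Among CSC fractions, FA2H, DEGS1 and UGCG were called higher in HCC1937, 3 of 10 genes against 45.1% of 16373, and CERS2, CERS6, SPTLC2 and UGT8 lower, 4 of 10 against 31.8%. FA2H had a log2 difference of 4.92 and CERS6 of -2.0 (SE 0.15), while UGT8, listed at 0 in HCC1937, has no size that could be ranked beside them. UGT8 passed the expression minimum of this fit only through the SUM149 non-CSCs (2.92 FPKM), a group outside the comparison of CSCs. Its place in the counts is therefore no evidence. DEGS1 was 1.15 (SE 0.08), SPTLC2 -1.01 (SE 0.11), CERS2 -0.88 (SE 0.06) and UGCG 0.20 (SE 0.07). The median of all genes was 0.22 here and 0.00 with upper quartile scaling; relative to it UGCG was at -0.02. The UGCG call was lost without HCC1937 replicate 3 (adjusted p = 0.0561) or SUM149 replicate 2 or 3 (0.0534 and 0.0690), with TPM and quantile scaling and with the GC trend removed, and its sign turned with upper quartile scaling (-0.04, adjusted p = 0.626). CERS4 (-0.29, adjusted p = 0.101) and CERS5 (-0.20, adjusted p = 0.136) were not called as deposited and were called lower with TPM, upper quartile and quantile scaling and with the GC trend removed. With a library left out CERS4 ran from -0.43 to -0.12 and was called without HCC1937 replicate 3 (adjusted p = 0.0194), and CERS5 ran from -0.35 to -0.08 and was called without HCC1937 replicate 1 (adjusted p = 0.00454).

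Among non-CSC fractions, FA2H and CERS4 were higher in HCC1937, 2 of 10 against 41.4%, and CERS6, DEGS1, DEGS2, UGCG and UGT8 lower, 5 of 10 against 35.4%. CERS4 differed by 2.0 (SE 0.15) and CERS6 by -1.07 (SE 0.15). DEGS1 was -1.21 (SE 0.08), the opposite of its direction among CSCs. DEGS2 was -1.33 (SE 0.53, adjusted p = 0.0376), a call lost in 7 alternatives, among them TPM and quantile scaling, and its value ran from -1.70 to -0.72 with a library left out. CERS2 (-0.14, adjusted p = 0.0516) and SPTLC2 (-0.25, adjusted p = 0.0597) missed the limit, but were called lower under 10 and 7 alternatives, including TPM, upper quartile and quantile scaling and the removal of the GC trend. CERS5 (-0.03, adjusted p = 0.829) was called lower with upper quartile scaling (-0.26, adjusted p = 0.0376). The median of all genes was 0.09, and -0.12 with upper quartile scaling. FA2H was called higher, and CERS6 lower, in HCC1937 in both fractions. UGT8 was counted as lower in both, but it passed the expression minimum only through the SUM149 non-CSCs, so its calls were set by that filter.

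SUM159 was set beside the CSC fractions, with which it shares its label. As deposited, it had the most CERS2 (102 ± 5.03 FPKM) and CERS4 (9.40 ± 0.431) and the least UGCG (2.44 ± 0.156), SPTLC2 (0.517 ± 0.10) and CERS6 (1.12 ± 0.258, SD, n = 3 each) of the 5 groups. Against SUM149 CSCs, 2 of the 10 genes were called higher (28.3% of all genes) and 5 lower (53.3%). Against HCC1937 CSCs, 3 were higher (27.6%), UGT8 among them against a group listed at 0, and 5 lower (57.2%). UGT8 is also among the 5 lower against SUM149 CSCs. It passed the expression minimum only through the SUM149 non-CSCs, a group in neither comparison. UGCG was lower by -3.83 (SE 0.07) and -4.03 (SE 0.07), and SPTLC2 by -3.38 (SE 0.11) and -2.37 (SE 0.11). FA2H was -0.52 against SUM149 CSCs (95% interval -1.04 to 0.01, adjusted p = 0.0648) and -5.44 (SE 0.24) against HCC1937 CSCs. The first value is unstable: it was called lower with TPM scaling (-1.52, adjusted p = 0.000293), with a pseudocount of 0.01 (-0.84, 0.0493) and without SUM159 replicate 1 (-0.86, 0.000358), and was 0.49 with quantile scaling.

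These values move with the scaling and with base composition. The median of all genes was -0.60 against SUM149 CSCs and -0.85 against HCC1937 CSCs as deposited, -1.44 and -1.64 with TPM scaling, -0.41 in both with upper quartile scaling and -0.01 and -0.02 with quantile normalization. Of all calls, 34.7% and 32.5% were higher as deposited, 16.9% and 17.0% with TPM scaling and 49.5% and 49.3% with quantile normalization. Relative to the median as deposited, UGCG was at -3.23 and -3.19, SPTLC2 at -2.77 and -1.52, CERS4 at 2.11 and 2.65, and CERS2 at 1.35 and 2.47. DEGS1 was at 0.04 against SUM149 CSCs, so its call there was no larger than the shift of all genes.

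Across 14188 genes the difference between SUM159 and the CSCs rose with the GC content of the longest annotated transcript, with a Spearman rho of 0.593 for SUM149 and 0.512 for HCC1937; genes are not independent replicates. Between CSCs and non-CSCs the rho was -0.134 in SUM149 and -0.176 in HCC1937. The transcripts of UGCG (40.9% GC), CERS6 (41.6%), UGT8 (42.0%), DEGS1 (43.6%) and SPTLC2 (43.8%) lie below the median of 48.8%, and those of CERS2 (53.8%), CERS4 (57.5%), FA2H (59.6%) and DEGS2 (65.7%) above it. With the trend removed, a setting chosen after seeing the data, UGCG was still lower in SUM159, at -1.55 and -1.63, and SPTLC2 at -1.67 and -0.49. CERS2 stayed higher at 0.62 and 1.79 and CERS4 at 1.01 and 1.63. DEGS1 turned to 1.19 and 0.20, UGT8 to 0.84 against SUM149 CSCs, and CERS6 to 1.25 against HCC1937 CSCs (-0.89 against SUM149 CSCs). FA2H was -1.15 against SUM149 CSCs (adjusted p = 0.000721) and -5.73 against HCC1937 CSCs. TPM scaling turned CERS2 to -0.34 against SUM149 CSCs, and quantile normalization left it at 0.11 without a call (adjusted p = 0.114).

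**Figure D4:**
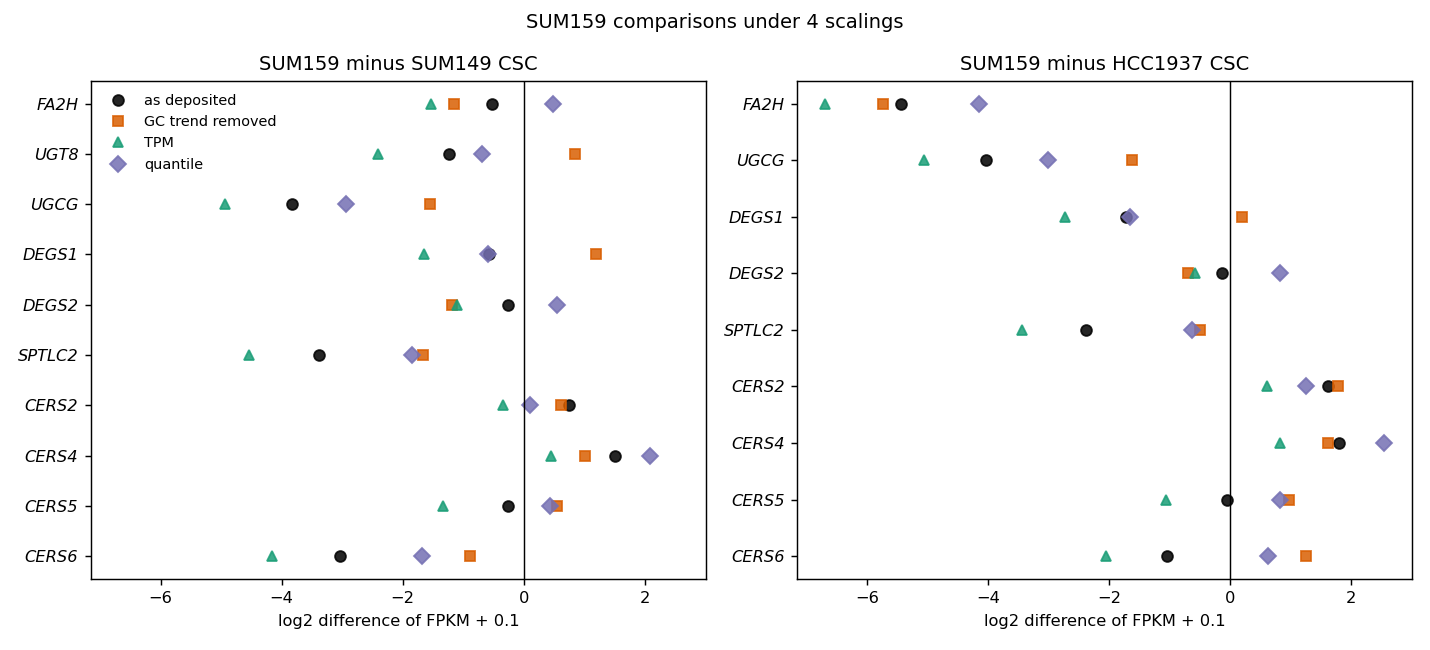
Log2 difference of SUM159 from SUM149 CSCs (left) and HCC1937 CSCs (right) for each gene as deposited, with the GC trend removed, with TPM scaling and with quantile normalization; UGT8 is left out on the right, where it is listed at 0 in HCC1937. UGCG and SPTLC2 lie left of 0 and CERS4 right of 0 under each setting, while DEGS1 crosses 0.

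The remaining genes of the pathway were taken from a list of 67 in 11 roles, the 10 included. In SUM149, 51 of the 57 others were tested, of which 12 were higher and 25 lower in CSCs, against 33.3% and 41.5% of all genes. In HCC1937, 49 were tested, with 7 higher and 11 lower, against 10.3% and 15.3%. The median log2 difference of these others was -0.17 in SUM149 (-0.11 for all genes) and -0.02 in HCC1937 (-0.03). Their median absolute difference was 0.64 and 0.22, against 0.71 and 0.24 for all genes, so in size the rest of the pathway was near the genome as a whole.

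Around serine palmitoyltransferase, 1 of 8 genes was higher and 4 lower in SUM149 CSCs, against 33.3% and 41.5% of all genes. Besides the subunits above, the small activating subunit SPTSSA was lower (log2 -1.41), as was the regulator ORMDL1 (-0.52), and the regulator ORMDL3 was higher (0.57). In HCC1937, SPTSSA (-0.35) and SPTLC2 were lower, 2 of 7 tested against 15.3%. KDSR, which reduces ketosphinganine, was -0.26 in SUM149 and called lower, and was not called in HCC1937 (0.21).

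Of the 4 genes of 2-hydroxylation and of the breakdown of hydroxylated acids, 3 were lower in SUM149 CSCs (41.5% of all genes) and 2 in HCC1937 CSCs (15.3%), FA2H being among them each time. PHYH, a peroxisomal hydroxylase, was -1.27 in SUM149 and -0.24 in HCC1937, where it was not called. ALDH3A2, a fatty aldehyde dehydrogenase, was -0.40 and -0.25, called in both. HACL1, the lyase that shortens 2-hydroxy acids, was called in neither (-0.11 and 0.16). Between lines, each of the 4 genes was higher in HCC1937 than in SUM149, in CSCs (45.1% of all genes) and in non-CSCs (41.4%) alike.

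Of the 7 fatty acid elongases, which set the chains that ceramide synthases use, 6 were lower and 1 higher in SUM149 CSCs, against 41.5% and 33.3% of all genes. On the scale of log2(FPKM + 0.1), ELOVL3 was lower by -4.21 (0.688 against 14.2 FPKM), ELOVL2 by -2.53 at low levels (0.00850 against 0.551 FPKM, the larger ratio), ELOVL4 by -1.35 and ELOVL5 by -1.31, and ELOVL6 was higher (1.36). In HCC1937, 6 were tested, with 2 higher and 1 lower against 10.3% and 15.3% of all genes: ELOVL2 (1.86 against 0.306 FPKM, log2 2.26) and ELOVL5 (0.39) higher and ELOVL7 lower (-0.81). ELOVL5 was therefore called in opposite directions in the lines, and its effects differed by -1.70. ELOVL2 was as well, with a difference of -4.80. In SUM149, however, it passed the expression minimum only through the non-CSCs (0.551 FPKM), so its call there was set by that group. DEGS1 was also called in opposite directions, although its HCC1937 call was lost in the alternatives given above.

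In the galactosylceramide branch, 3 of 5 genes were lower and 1 higher in SUM149 CSCs, against 41.5% and 33.3% of all genes. With UGT8, the sulfotransferase GAL3ST1 (1.13 against 2.68 FPKM, log2 -1.19) and the galactosylceramidase GALC (-1.72) were lower, and PSAP, the precursor of the saposins, was higher (1.39), while the sulfatase ARSA was not called (0.26). In HCC1937, GALC was higher (0.22) and ARSA lower (-0.38).

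Of the 15 genes of glucosylceramide and its glycolipids, 13 were tested in each line, with 4 higher and 5 lower in SUM149 CSCs (33.3% and 41.5% of all genes) and 2 higher and 3 lower in HCC1937 CSCs (10.3% and 15.3%), so both counts are near those of all genes. B4GALT5, which makes lactosylceramide, was lower in both (16.6 against 97.1 FPKM, log2 -2.55, in SUM149; 25 against 34.2, -0.45, in HCC1937), and its relative B4GALT6 was higher in both (0.56 and 0.45). GM2A, an activator of ganglioside breakdown, was lower in both (-1.96 and -0.37). The ganglioside GM3 synthase ST3GAL5 was higher in SUM149 (1.5) and lower in HCC1937 (0.725 against 1.13 FPKM, log2 -0.57).

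The branches that consume ceramide otherwise varied. Of 7 tested genes of sphingomyelin metabolism, SMPD1 was higher (0.29) and SGMS1 lower (-0.38) in SUM149 CSCs, against 33.3% and 41.5% of all genes, and SMPD2 lower in HCC1937 CSCs (-0.68), against 15.3%. ASAH2, a ceramidase with near-identical copies, was listed at 0 or close to it, and its value is uncertain. Of 3 tested ceramidases, ASAH1, the acid ceramidase, was lower in both lines (4.40 against 34.5 FPKM, log2 -2.95, in SUM149; -0.51 in HCC1937) and ACER3 was higher in both (0.56 and 0.73). ACER2 was lower in SUM149 (0.243 against 0.793 FPKM, log2 -1.39) and not called in HCC1937 (-0.05). That makes 1 higher and 2 lower in SUM149 (33.3% and 41.5% of all genes) and 1 each in HCC1937 (10.3% and 15.3%). Of 6 genes around sphingosine 1-phosphate, 2 were higher and 3 lower in SUM149 CSCs and 1 higher and 2 lower in HCC1937 CSCs, against the same shares of all genes. SGPP2, a phosphatase, was lower in both (-3.41 and -1.72). The lyase SGPL1 was also lower in both (-0.17 and -0.45). SGPP1 was higher in HCC1937 (0.73), and the kinase SPHK2 was lower in SUM149 (-0.41). The kinases SPHK1 (1.04) and CERK (0.64) were higher in SUM149 CSCs and not called in HCC1937 (0.14 and 0.21).

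**Figure D5:**
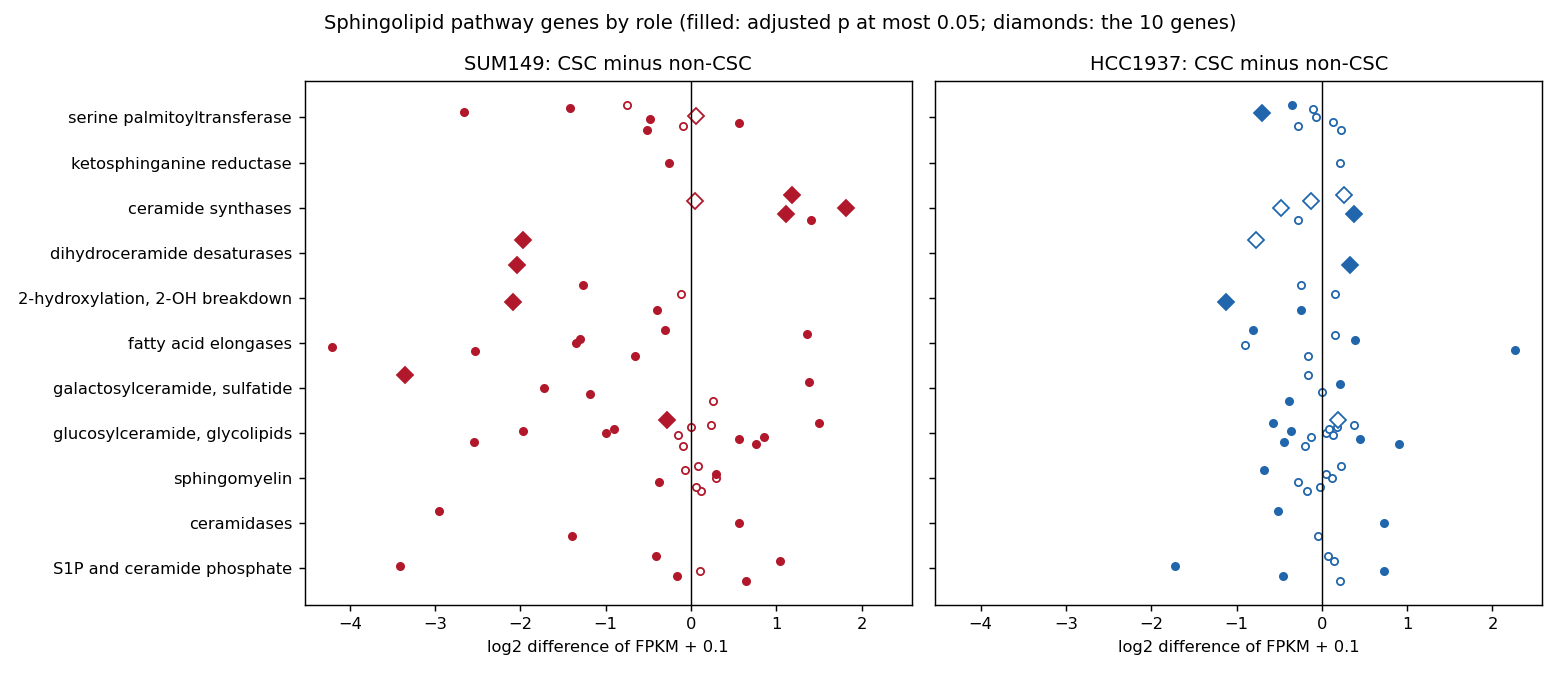
Log2 difference between CSCs and non-CSCs for each tested gene of the list by role, in SUM149 (left) and HCC1937 (right); filled symbols passed an adjusted p of at most 0.05 and diamonds are the 10 genes. In SUM149 the 2 desaturases lie near -2 and 4 of the 5 tested ceramide synthases right of 1.

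The genes most like FA2H over the 15 libraries were sought among the 12163 genes that averaged 1 FPKM or more, by Pearson's r of log2(FPKM + 0.1). The highest were TMEM139 (0.995), ABCC5 (0.992), MYO5C (0.991), LYNX1 (0.991) and CALB1 (0.991), and the lowest COL8A1 (-0.994), MPP1 (-0.992), BACE1 (-0.990), RNF41 (-0.989) and LEPREL2 (-0.987). TMEM139, as an example, was 0.108, 0.757, 3.74, 7.62 and 0.0290 FPKM on average in SUM149 CSCs, SUM149 non-CSCs, HCC1937 CSCs, HCC1937 non-CSCs and SUM159. The points fall into 5 groups from 3 lines, so r mostly reflects the order of the group means. Of the other 9 enzymes, CERS2 had the lowest r with FA2H (-0.835), UGCG (0.575) and DEGS1 (0.553) the highest, and CERS5 an r of 0.01.

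The other enzymes lie apart in the genome, by RefSeq on GRCh38.p14. CERS2 (chr1:150965186-150974835) and DEGS1 (chr1:224183240-224193441) are on chromosome 1, and SPTLC2 (chr14:77505997-77616637) and DEGS2 (chr14:100143957-100166886) on chromosome 14. UGT8 is at chr4:114598402-114678225, UGCG at chr9:111896814-111935369, CERS4 at chr19:8209370-8262421, CERS5 at chr12:50129289-50167369 and CERS6 at chr2:168456272-168775134. The pairs that share a chromosome did not share a direction in SUM149 CSCs: CERS2 was higher with DEGS1 lower, and SPTLC2 was not called with DEGS2 lower. In HCC1937 CSCs the chromosome 1 pair did, with CERS2 (0.38) and DEGS1 (0.32) called higher, though both calls were lost with the replicate block. SPTLC2 was lower there (-0.70) and DEGS2 was not called.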

How the data were processed

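RNA of 15 libraries was analysed from the table of FPKM values that the authors deposited. The submitters' processing notes name Bowtie2 and GRCh38; the quantifier, the use of strand and any normalization between libraries are not given in the sources used here. Genes averaging 0.1 FPKM or more in the libraries of a fit were modelled by limma 3.58.1 in R 4.3.3 (lmFit, then eBayes) from log2(FPKM + 0.1), with Benjamini-Hochberg adjustment over all genes tested: 6 libraries for each line, 12 for the interaction and 15 for the 5 group means. Each fit was tested on simulated data with known differences. Shares within an enzyme family were compared by exact permutation tests in scipy 1.17.1. Other pathway genes were named by size among those called, at most 4 for each role and comparison, averaging 1 FPKM or more across the compared groups; paralogs of the 10 genes were always given, and ELOVL2, ACER2 and ST3GAL5 in HCC1937 are named below that level. Transcript GC content came from GENCODE 29, and gene positions and promoters from RefSeq. The genes and lists were chosen with earlier results of these data known. Alternatives were the pseudocount, the expression minimum, scaling, an eBayes trend, a replicate block, a stricter limit, left-out libraries and, chosen after seeing the data, the removal of a GC trend. Some markers and pathway genes are not reported here.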

Additional observations from a re-analysis of the deposited data

Results flagged for a closer look

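For 7 of the 10 genes the CSC effect differed between SUM149 and HCC1937 by a test of the difference itself, with UGT8 aside because it is listed at 0 in HCC1937. Such a difference was common: 28.1% of all genes were called more positive in SUM149 and 33.0% more negative. The difference (SUM149 minus HCC1937, log2) was 2.29 for CERS4, 0.93 for CERS6, 0.76 for SPTLC2, 0.73 for CERS2, -0.48 for UGCG, -0.97 for FA2H and -2.36 for DEGS1. DEGS1 is the gene among them that was called in opposite directions in the lines, but its HCC1937 call (adjusted p = 0.0210) was lost with the replicate block (0.0653) and in 5 of the 6 fits with a library left out (0.0524 to 0.0754). The value for FA2H changes sign when 1 FPKM is added in place of 0.1, whereas the other 6 kept their direction under each alternative run.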

How the results depend on the processing

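The called differences between CSCs and non-CSCs kept their direction in each of 134 alternative values in SUM149 (8 genes) and 68 in HCC1937 (4 genes), though 6 and 9 of these values missed the limit of adjusted p. The number of genes called in HCC1937 was 4 as reported, 0 at the stricter limit, 2 with the replicate block and 2 to 3 with a library left out (2 without replicate 1 of the non-CSCs). It was 5 in 6 settings, with UGCG gained in 5 of them and CERS4 when the 15 libraries shared a fit. Calls over all genes in HCC1937 moved too. They were 1607 higher and 2378 lower as reported, and 1161 and 1905 with the replicate block. The number whose effect differed between lines was 8 with UGT8 counted, and 8 to 9 with a library left out. At the stricter limit it was 3, where the share of all genes was not computed. CERS5 was gained without HCC1937 CSC replicate 1 (0.32, adjusted p = 0.0465). The cause of these shifts in the counts was not tested. The sample titles number the CSC and non-CSC libraries of a line alike, and no label says whether a shared number marks a shared sort. Deviations of same-numbered libraries correlated at 0.0867, 0.0238 and 0.0797 in SUM149 and at -0.0841, -0.0364 and -0.0194 in HCC1937. With 3 libraries in a group these values cannot settle whether the libraries were paired. The main fits took them as unpaired.

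In the SUM159 comparisons directions turned under other scalings. Against SUM149 CSCs, CERS2 was -0.34 with TPM; CERS5 0.0477 with upper quartile, 0.43 with quantile scaling and 0.56 with the GC trend removed; DEGS1 1.19 and UGT8 0.84 with the GC trend removed; DEGS2 0.56 and FA2H 0.49 with quantile scaling. Against HCC1937 CSCs, CERS5 was 0.49 with upper quartile, 0.82 with quantile scaling, 0.98 with the GC trend removed and -0.18 to 0.10 with a library left out; CERS6 0.64 with quantile scaling and 1.25 with the GC trend removed; DEGS1 0.20 with the GC trend removed; DEGS2 0.31 with a pseudocount of 0.01, 0.11 with upper quartile, 0.83 with quantile scaling and -0.58 to 0.37 with a library left out (0.06 without SUM159 replicate 2).

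Elsewhere, the difference of the FA2H CSC effect between SUM149 and HCC1937 was 0.14 with a pseudocount of 1. UGCG between CSC fractions was -0.0385 with upper quartile scaling. Values near 0 turned for DEGS2 between CSC fractions (0.00646 with a pseudocount of 1, and -0.62 to 0.33 with a library left out) and for CERS5 in HCC1937 (-0.27 to 0.00271 with a library left out) and between non-CSC fractions (-0.0734 to 0.0154 likewise). Of the shares, CERS6 in HCC1937 turned to -0.162 and -0.0933 points without replicate 2 of the CSCs or of the non-CSCs and reached 0.791 without CSC replicate 1, DEGS2 in SUM149 to 0.000317 with 0.1 FPKM added, and CERS2 in SUM149 moved from 4.85 to 5.19. Depth is unknown, so genes with low FPKM, such as DEGS2 in HCC1937, cannot be placed more closely than their 3 libraries allow.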
